A study of Mus musculus with 6 samples.

Results

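Matrix metalloproteinases (MMPs) are zinc enzymes that cut proteins of the extracellular matrix, and the tissue inhibitors of metalloproteinases (TIMPs) are the small secreted proteins that block them. Here 7 MMPs (Mmp2, Mmp3, Mmp9, Mmp12, Mmp13, Mmp14 and Mmp19) and 3 TIMPs (Timp1, Timp2 and Timp3) were followed, 10 of the 24147 rows of the deposited gene tables, chosen by gene symbol. All came from wild-type C57BL/6 mice, 2 months old, whose lens fiber cells had been taken out through a cut in the cornea, as in cataract surgery. The capsule and the epithelial cells still on it were collected 24 h after the operation (24 h, 3 libraries) or at once (0 h, 3 libraries). Both groups had therefore been operated on, and no unoperated lens was used here. The sources used here do not state the number of mice or eyes behind each library, so p-values measure the spread between these libraries.

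Most MMPs are made as inactive precursors that need another protease to cut off an inhibitory segment, whereas membrane-type MMPs such as Mmp14 sit on the cell surface and are activated inside the cell by furin. A TIMP binds an active MMP tightly and fills its active site, so the balance of MMPs and TIMPs sets how much matrix is cut. In the lens, the epithelium rests on a capsule built of type IV collagen and laminin, which several MMPs can digest. MMPs and TIMPs have been studied for many years in the clouding of the capsule that can follow cataract surgery. RNA levels do not show how much enzyme is active.

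Libraries held 8069314 to 10862573 counts in genes, and 13956 genes passed the filter on low counts. Values are CPM, counts relative to library size, scaled by TMM, a library scaling that limits the weight of a few abundant genes, unless a count or a level per gene length is named. Differences were tested with edgeR's quasi-likelihood test with Benjamini-Hochberg adjustment over all genes tested, and a gene was called at an adjusted p under 0.05. The RNA carried the lens label: Cryaa, a lens crystallin, stood at 41498 to 51367 CPM at 24 h and 66604 to 111905 CPM at 0 h, and all 9 listed lens epithelium markers were detected.

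Of the 10 members, 7 were called higher at 24 h, where 15.2% of all genes tested were. These were Mmp3, Timp1, Mmp12, Mmp9, Mmp13, Mmp14 and Mmp19, in falling order of fold change. By the edgeR test 0 were called lower, where 13.0% of all genes tested were, but 1 (Timp2) was lower at an unadjusted p under 0.05, and 1 was called lower by DESeq2 and 0 by limma-voom. The 24 h libraries all lay above the 0 h libraries for 7 members, as for 22.9% of genes tested, and all below them for Timp2, as for 21.8% of genes tested (8 members in either direction, against 44.7% of genes tested). On the log2 scale the 10 had a median change of 1.85, and all genes tested one of -0.03. Every member passed the low-count filter, which needs 3 libraries over its cut. Mmp3, Mmp12 and Mmp13 had 0 libraries of 0 h over it, so they could hardly be tested without being higher. Mmp9 had 2 libraries of 0 h over the cut and could not have passed on its 0 h libraries alone.

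**Figure D1:**
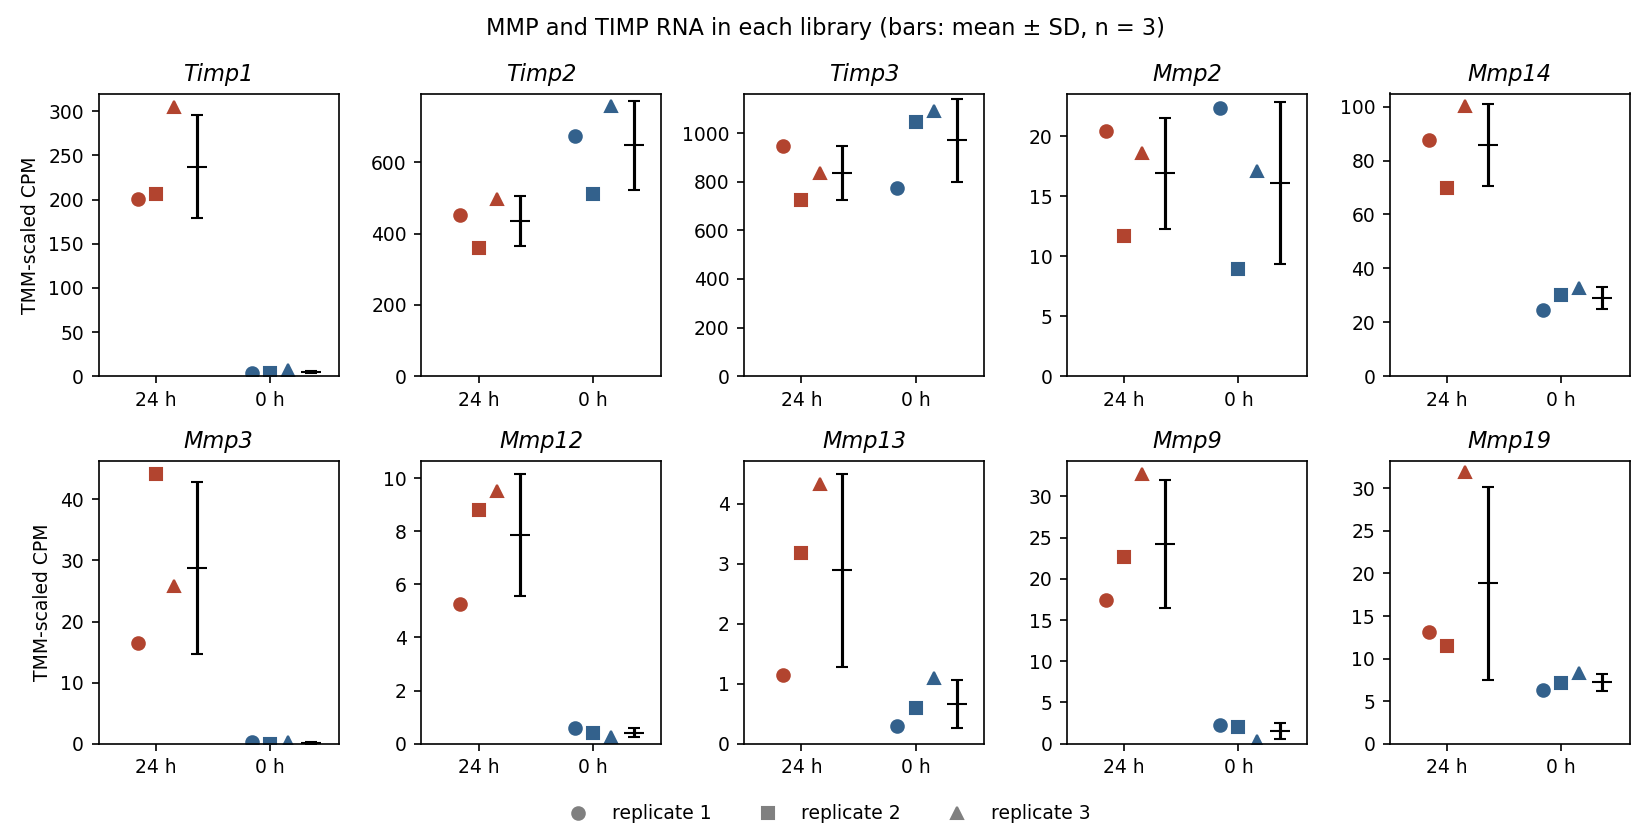
TMM-scaled CPM of the 10 members in each library (y axis, linear from 0), 24 h left of 0 h, with the mean ± SD of 3 libraries beside the points. For Timp1 the 24 h libraries lie between 201 and 305 CPM and the 0 h libraries between 3.71 and 6.59 CPM, while for Mmp2 and Timp3 the groups overlap.

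Among the inhibitors, Timp1 rose steeply, while Timp2 and Timp3, which were far more abundant than Timp1 at 0 h, did not pass the test. Timp1 (X chromosome, 20870166 to 20874737, mm10, plus strand) encodes a secreted inhibitor of most soluble MMPs that is weak against the membrane-type ones. It had 201, 206 and 305 CPM in 24 h replicates 1 to 3, against 4.11, 3.71 and 6.59 CPM in 0 h replicates 1 to 3. The lowest 24 h library was thus far above the highest 0 h library. Its log2 fold change was 5.64 ± 0.29 (SE), a 49.8-fold rise (adjusted p = 1.53e-05, n = 3 and 3), and 83rd in size among the 2125 genes called higher. On reads summed over each time, 6393 at 24 h and 132 at 0 h, the ratio was 51.1 (95% counting interval 43.0 to 61.2), which covers counting error only.

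Timp2 (chromosome 11, 118301061 to 118355411, minus strand) inhibits MMPs and, in a complex with Mmp14 at the cell surface, also helps to activate the Mmp2 precursor. It had 451, 359 and 497 CPM in 24 h replicates 1 to 3, against 672, 512 and 758 CPM in 0 h replicates 1 to 3. All 24 h libraries lay below all 0 h libraries, with little space between the highest 24 h library and the lowest at 0 h. The log2 fold change was -0.57 ± 0.20 (95% interval -1.03 to -0.11), and it was not called (adjusted p = 0.0672). It was called lower by DESeq2 (adjusted p = 0.0243) and by edgeR without 0 h replicate 2 (adjusted p = 0.0403). By edgeR with a block for the replicate number it was also called lower (adjusted p = 0.018). The adjusted p ran between 0.018 and 0.752 over 13 alternatives.

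Timp3 (chromosome 10, 86300412 to 86349505, plus strand) stays bound to the matrix after secretion and inhibits several ADAM and ADAMTS proteases besides the MMPs. Values were 948, 726 and 838 CPM in 24 h replicates 1 to 3, against 772, 1045 and 1092 CPM in 0 h replicates 1 to 3. The groups overlapped, with 24 h replicate 1 above 0 h replicate 1. Its log2 fold change of -0.21 ± 0.20 (95% interval -0.66 to 0.24) was not called (adjusted p = 0.468). The retinal pigment epithelium is known to make much Timp3, and 4 markers of that epithelium, Rpe65, Rgr, Lrat and Ttr, were called lower at 24 h. Rgr had 2.17, 1.70 and 2.01 CPM at 24 h, against 39.5, 88.6 and 48.2 CPM at 0 h. Some pigment cell markers went the other way. Dct had 489, 63.7 and 254 CPM at 24 h, against 52.6, 69.5 and 19.9 CPM at 0 h, so the groups overlapped. It was called higher in the fit to all 6 libraries but not when 24 h replicate 1, or 0 h replicate 1 or 3, was left out. Tyr (adjusted p = 0.0728) and Tyrp1 (adjusted p = 0.217) were not called. Over the 11 listed markers of pigmented epithelia, 3 were called higher and 4 lower, where 15.2% and 13.0% of all genes tested were. For 0 of the 11 did all 24 h libraries lie above all 0 h libraries. Summed levels of the 11 were 148 to 1213 CPM at 24 h and 245 to 453 CPM at 0 h, and their part in the Timp3 level was not tested. The 3 higher calls of that list became 0 without 24 h replicate 1, 0 h replicate 1 or 0 h replicate 3, 1 without 24 h replicate 3 and 5 without 24 h replicate 2. In bulk tissue, fewer cells of a type and less RNA per cell cannot be told apart.

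Mmp14 was the most abundant MMP in the tissue at both times, and it rose. This membrane-anchored enzyme (chromosome 14, 54431604 to 54441258, plus strand) cuts fibrillar collagen around the cell and activates the Mmp2 precursor. Levels were 87.6, 69.9 and 100.1 CPM in 24 h replicates 1 to 3, against 24.4, 30.0 and 32.6 CPM in 0 h replicates 1 to 3. Every 24 h library was above every 0 h library. The log2 fold change was 1.57 ± 0.18, a 2.96-fold rise (adjusted p = 0.000497), with values of 1.44 to 1.70 when single libraries were left out.

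The gelatinases, Mmp2 and Mmp9, cut denatured collagen and type IV collagen, and their values parted. Mmp2 (chromosome 8, 92827328 to 92853420, plus strand) had 20.5, 11.7 and 18.6 CPM in 24 h replicates 1 to 3, against 22.3, 8.92 and 17.1 CPM in 0 h replicates 1 to 3. The groups overlapped almost fully. Its log2 fold change was 0.07 ± 0.35 (95% interval -0.72 to 0.86, adjusted p = 0.907), so the interval covers changes in both directions. When single libraries were left out it ran from -0.23 to 0.42, so no direction can be given.

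Mmp9 (chromosome 2, 164948219 to 164955849, plus strand), the gelatinase that neutrophils also store in granules, had 17.4, 22.6 and 32.7 CPM in 24 h replicates 1 to 3. At 0 h it had 2.20, 2.00 and 0.366 CPM, the last from only 3 reads. The groups did not overlap, and the log2 fold change was 3.95 ± 0.50, a 15.4-fold rise (adjusted p = 0.000801). Neutrophil markers rose beside it: of 12 listed 11 were found, 6 could be tested and all 6 of these were called higher. Among all genes tested 15.2% were. Markers with hardly any reads at 0 h could pass the low-count filter only through their 24 h libraries. Such markers could hardly be tested without being higher. The summed level of the 11 found was 96.9, 129 and 183 CPM in 24 h replicates 1 to 3, against 6.21, 13.0 and 16.6 CPM in 0 h replicates 1 to 3. At 24 h Mmp9 and this sum had the same order over the replicates, while at 0 h they ran in opposite order. Elane, a neutrophil granule protease made in the bone marrow, had 0 counts in all 6 libraries, and Itgam and Csf3r were the most abundant of the list, at 24.8 to 61.1 CPM and 29.4 to 49.7 CPM at 24 h. The part of neutrophils in the Mmp9 level was not tested.

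Mmp3, Mmp12 and Mmp13 lie in a cluster of MMP genes on chromosome 9, and each was near 0 in the fresh tissue. Of the 10 MMP genes deposited there, spread over 427 kb from 7272514 to 7699416, 4 (Mmp1b, Mmp1a, Mmp27 and Mmp20) had 0 counts in all libraries and 6 had reads at 24 h. RefSeq promoter windows, from 250 bases before to 50 after the start, were found for 7 of the 10 members. They were searched for the letters of a binding site of AP-1, the Fos and Jun dimer long known to act on collagenase and stromelysin genes. All 3 cluster members carried it shortly before their start, and the 250 bases before the start of each are shown for that reason, 5′ to 3′ on the plus strand of GRCm38.p6, with the AP-1 letters in capitals.
Mmp3, chr9:7445572-7445821: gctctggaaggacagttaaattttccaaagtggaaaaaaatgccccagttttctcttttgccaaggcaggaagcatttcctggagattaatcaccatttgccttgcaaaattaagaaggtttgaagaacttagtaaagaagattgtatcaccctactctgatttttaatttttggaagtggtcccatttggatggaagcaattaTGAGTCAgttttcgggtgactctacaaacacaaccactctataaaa
Mmp12, chr9:7347124-7347373: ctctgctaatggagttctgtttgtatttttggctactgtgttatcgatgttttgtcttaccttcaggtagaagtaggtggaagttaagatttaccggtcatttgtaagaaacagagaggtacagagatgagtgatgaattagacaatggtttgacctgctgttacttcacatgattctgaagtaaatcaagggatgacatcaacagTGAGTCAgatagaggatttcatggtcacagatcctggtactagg
Mmp13, chr9:7272264-7272513: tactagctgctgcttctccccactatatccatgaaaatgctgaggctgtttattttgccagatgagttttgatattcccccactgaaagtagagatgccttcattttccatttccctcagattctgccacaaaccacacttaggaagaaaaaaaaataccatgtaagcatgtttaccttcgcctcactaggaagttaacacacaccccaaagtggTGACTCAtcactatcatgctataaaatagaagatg

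The AP-1 letters searched were TGANTCA on both strands, and their first base lay 46 bases before the start in Mmp3, 44 before it in Mmp12 and 35 before it in Mmp13. Of all 32817 promoter windows of the table, 7.81% held these letters. Windows of Mmp14, Timp1, Timp2 and Timp3 and a second, upstream window of Mmp12 held none, which says only that these letters are not in those windows. The TATA box letters TATAAA stood in the windows of Mmp3, Mmp12 and Mmp13 too, against 13.6% of all windows. Their first base lay 7 bases before the start in Mmp3 and 16 before it in Mmp13. In Mmp12 it lay 4 bases after the start, outside the stretch shown. STAT letters TTCNNNGAA (8.29% of all windows) and the NF-kB motif (4.8%) were found in none of the members' windows. A match of letters is a description of the sequence and not a shown binding site.

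The largest fold change among the 10 members was that of Mmp3, the stromelysin that cuts many matrix proteins and can activate other MMP precursors (7445822 to 7455974, plus strand). Reads numbered 129, 415 and 244 in 24 h replicates 1 to 3, against 2, 0 and 2 in 0 h replicates 1 to 3, or 16.5, 44.1 and 25.8 CPM against 0.200, 0 and 0.244 CPM. The gene was close to the detection limit at 0 h, where 3 reads correspond to 0.301 to 0.366 CPM, and clearly present in each 24 h library. Its log2 fold change was 7.53 ± 0.64 (adjusted p = 0.000145), and 6.94 without 0 h replicate 2, the library with 0 reads. Summed reads of 788 at 24 h and 4 at 0 h gave a scaled ratio of 208 (95% counting interval 80.8 to 765).

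Mmp12, an elastase best known from macrophages (7347374 to 7360461, plus strand), had 41, 83 and 90 reads in 24 h replicates 1 to 3, against 6, 4 and 2 reads in 0 h replicates 1 to 3. In CPM these were 5.24, 8.81 and 9.52 at 24 h and 0.601, 0.401 and 0.244 at 0 h, with no overlap. The log2 fold change was 4.18 ± 0.49, an 18.1-fold rise (adjusted p = 0.000554). Macrophage markers did not move one way beside it: of 12 listed, 2 (Cd68 and Cd14) were called higher and 4 (Csf1r, Cx3cr1, Mrc1 and Cd163) lower. Over all genes tested, 15.2% were called higher and 13.0% lower. The calls of Csf1r and Mrc1 were lost when 24 h replicate 1 or 2, or 0 h replicate 2 or 3, was left out. The summed level of the 12 macrophage markers was 134, 113 and 198 CPM in 24 h replicates 1 to 3. In 0 h replicates 1 to 3 it was 81.9, 160 and 187 CPM. The part of macrophages in the Mmp12 level was not tested.

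Mmp13, a collagenase (7272514 to 7283333, plus strand), had the lowest level of the 10 members at 24 h. It had 9, 30 and 41 reads in 24 h replicates 1 to 3, against 3, 6 and 9 reads in 0 h replicates 1 to 3. The count of 24 h replicate 1 equalled that of 0 h replicate 3, and only after scaling did the groups part, at 1.15 CPM against 1.10 CPM. The log2 fold change of 2.13 ± 0.69, a 4.38-fold rise, was just past the threshold (adjusted p = 0.0478). The call was lost when 24 h replicate 2 or any single 0 h library was left out, and Mmp13 did not pass the filter without 24 h replicate 3. With limma-voom the adjusted p was 0.0794, and over 12 alternatives it ran between 0.0232 and 0.134.

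Further along the cluster, the neighbours Mmp10, Mmp8 and Mmp7 also had most of their reads at 24 h. Mmp10, a second stromelysin, had 25, 85 and 28 reads in 24 h replicates 1 to 3 and 0, 0 and 3 reads in 0 h replicates 1 to 3. Like Mmp3 it was highest in 24 h replicate 2, and its scaled ratio of summed reads was 48.5 (95% counting interval 16.3 to 238, adjusted p = 0.00509 in the edgeR test). Mmp7, or matrilysin, had 34, 18 and 36 reads at 24 h and 0 in every 0 h library (adjusted p = 0.0027 in the edgeR test). Against a floor of 3 reads over the 0 h group it was 30.9-fold higher, counting error aside. Mmp8, the neutrophil collagenase, had 7, 12 and 21 reads at 24 h and 0 at 0 h, 14.1-fold higher on the same floor, and did not pass the low-count filter. Mmp7 and Mmp10 passed that filter only through their 24 h libraries, so they could hardly be tested without being higher.

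**Figure D2:**
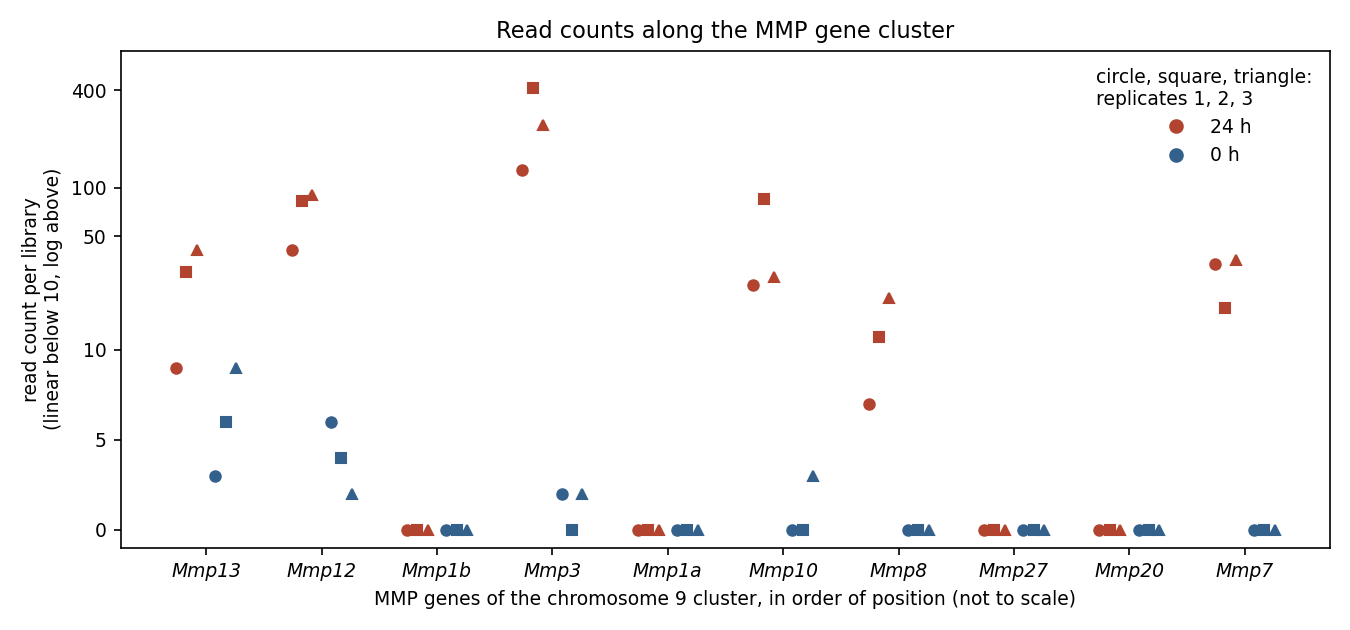
Read counts per library (y axis, linear below 10 and logarithmic above) of the 10 MMP genes of the chromosome 9 cluster in order of position (x axis), 24 h left of 0 h. Mmp3 reached 129 to 415 reads at 24 h and 0 to 2 reads at 0 h, and 4 genes of the cluster had no read in any library.

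Mmp19, a secreted MMP that cuts basement membrane proteins (chromosome 10, 128790910 to 128800824, plus strand), was called higher, but 1 library weighed heavily in it. Its values were 13.2, 11.5 and 31.9 CPM in 24 h replicates 1 to 3, against 6.31, 7.11 and 8.30 CPM in 0 h replicates 1 to 3. The groups did not overlap, and 24 h replicate 3 stood far above the other 24 h libraries. The log2 fold change was 1.38 ± 0.40, a 2.61-fold rise (adjusted p = 0.0308). Without 24 h replicate 3 it was 0.77 and not called (adjusted p = 0.0746), and leaving out any single 0 h library, or using limma-voom, also lost the call. Its adjusted p ran between 0.00504 and 0.116 over 13 alternatives. Mmp19 shares 789 exon bases with Tmem198b on the opposite strand, 22.3% of its exon bases in GENCODE M21, and whether counting used the strand is not stated in the sources at hand, so reads of the pair cannot be told apart there. Tmem198b had 133, 167 and 235 reads at 24 h and 181, 183 and 181 reads at 0 h, of the same order as the 103, 108 and 302 reads of Mmp19 at 24 h.

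Other members have such partners too. Timp3 shares 1733 exon bases, 21.3% of its own, with Syn3, which runs on the opposite strand around it. But Syn3 had 81 to 92 reads at 24 h and 111 to 174 at 0 h, against 6833 to 7923 and 7709 to 10430 for Timp3. Mmp12 shares 157 exon bases with Mmp1b on the opposite strand, which had 0 counts in all libraries. Timp1 lies inside an intron of Syn1 and shares 0 exon bases with it. Syn1 had 289, 200 and 58 reads at 24 h and 187, 170 and 103 at 0 h, an order that differs from that of Timp1.

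**Figure D3:**
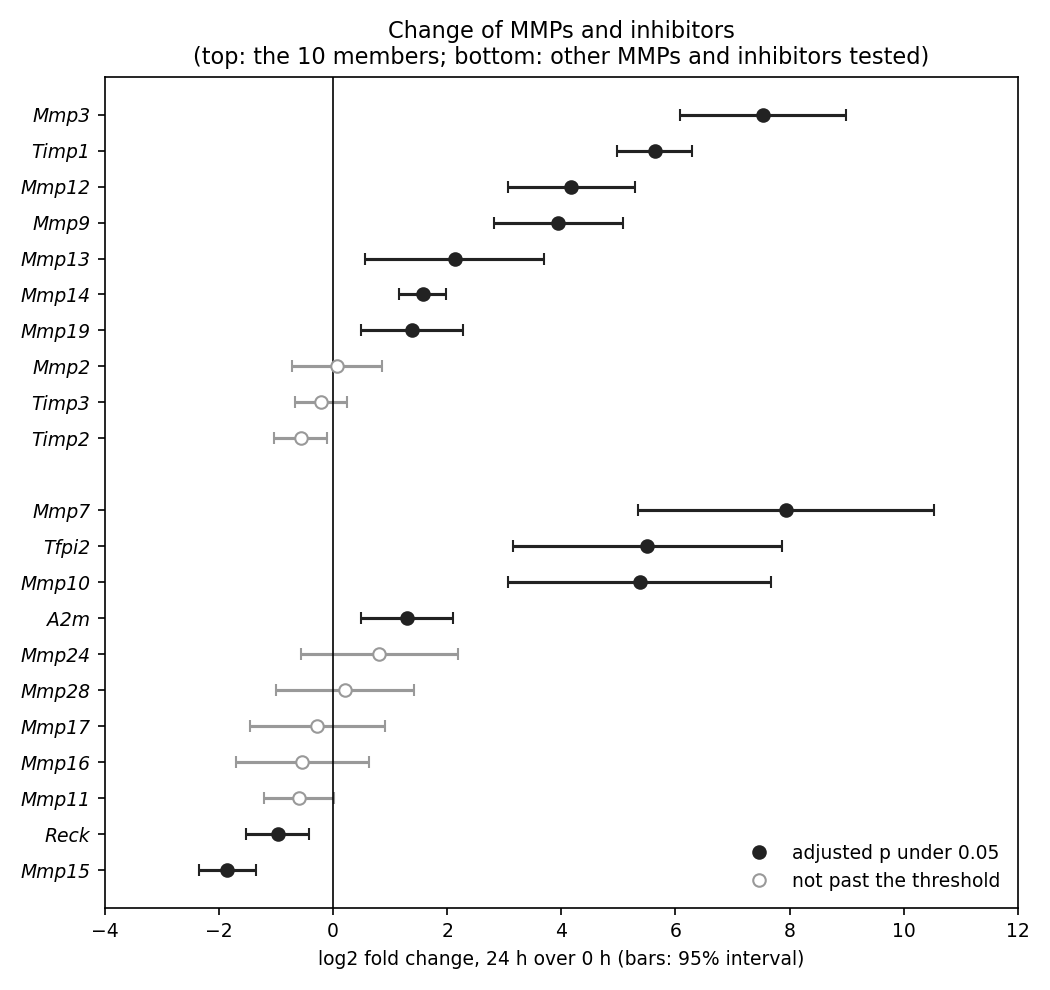
Log2 fold change, 24 h over 0 h (x axis), with its 95% interval for the 10 members (top block) and for the other listed MMPs and MMP inhibitors that passed the low-count filter (bottom block), filled where the adjusted p was under 0.05. Mmp3 stands highest among the members at 7.53, and the intervals of Mmp2 and Timp3 cross 0.

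To set genes beside each other, counts were divided by the deposited gene length and scaled to the same total in each library (TPM), without TMM scaling. By mean TPM the order at 24 h was Timp1, Timp3, Timp2, Mmp14, Mmp3, Mmp9, Mmp2, Mmp19, Mmp12 and Mmp13. At 0 h it was Timp3, Timp2, Mmp14, Timp1, Mmp2, Mmp19, Mmp9, Mmp13, Mmp12 and Mmp3. Timp1 led at 24 h with a level of 684 ± 149 TPM (SD, n = 3), above the levels of Timp3 at 460 ± 55.3 TPM and Timp2 at 309 ± 40.7 TPM, without overlap of the libraries. At 0 h its level was 12 ± 3.92 TPM, which overlapped with that of Mmp2 at 11.4 ± 3.34 TPM. Levels of Mmp3 and Mmp9, Mmp9 and Mmp2, Mmp2 and Mmp19, and Mmp12 and Mmp13 overlapped between libraries at 24 h. Timp3 and Timp2 overlapped at 0 h, as did the neighbours from Mmp9 down to Mmp3.

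The MMP transcripts together had summed levels of 156, 184 and 207 TPM in 24 h replicates 1 to 3, against 37.6, 45.4 and 47.1 TPM in 0 h replicates 1 to 3. These sums did not overlap, and the mean sum was 4.21-fold higher at 24 h, or 3.36-fold on TMM-scaled CPM not divided by length. These scales differ in library scaling as well as in length. Mmp2 alone had means of 14.3 TPM at 24 h and 11.4 TPM at 0 h, against 16.9 and 16.1 CPM. Mmp14 made up 55.5, 38.8 and 46.6% of the sum at 24 h and 47.8, 65.9 and 58.9% at 0 h. Mmp3 held 15.1, 35.3 and 17.3% at 24 h, against at most 0.637% in a 0 h library, and Mmp2 held 5.54 to 11.1% at 24 h, against 16.8 to 37.3% at 0 h. The makeup of the MMP transcripts had thus moved away from Mmp2, whose own level did not pass the test.

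Summed TIMP levels were 1422, 1291 and 1644 TPM in 24 h replicates 1 to 3, against 678, 957 and 995 TPM in 0 h replicates 1 to 3. The direction of this sum depends on the scale: the mean was 1.66-fold higher at 24 h per gene length, and 0.931 times that at 0 h on CPM. Timp1 has a length of 890 bases, against 4681 for Timp3 and 3622 for Timp2. Only the CPM were TMM-scaled, so length and library scaling both differ between these values. Timp1 made up 40.8, 47.6 and 52.0% of the TIMP level at 24 h, against 1.30, 1.13 and 1.65% at 0 h. Per library, the summed TIMP level was 9.09, 7.0 and 7.95 times the summed MMP level at 24 h, against 18.1, 21.1 and 21.1 times at 0 h. TIMP transcripts thus exceeded those of the 7 MMPs in every library, by a smaller factor at 24 h (mean 8.02 ± 1.05) than at 0 h (20.1 ± 1.76), and on CPM these factors were 8.26 and 29.5. The members were chosen with results known, so these sums carry no test.

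**Figure D4:**
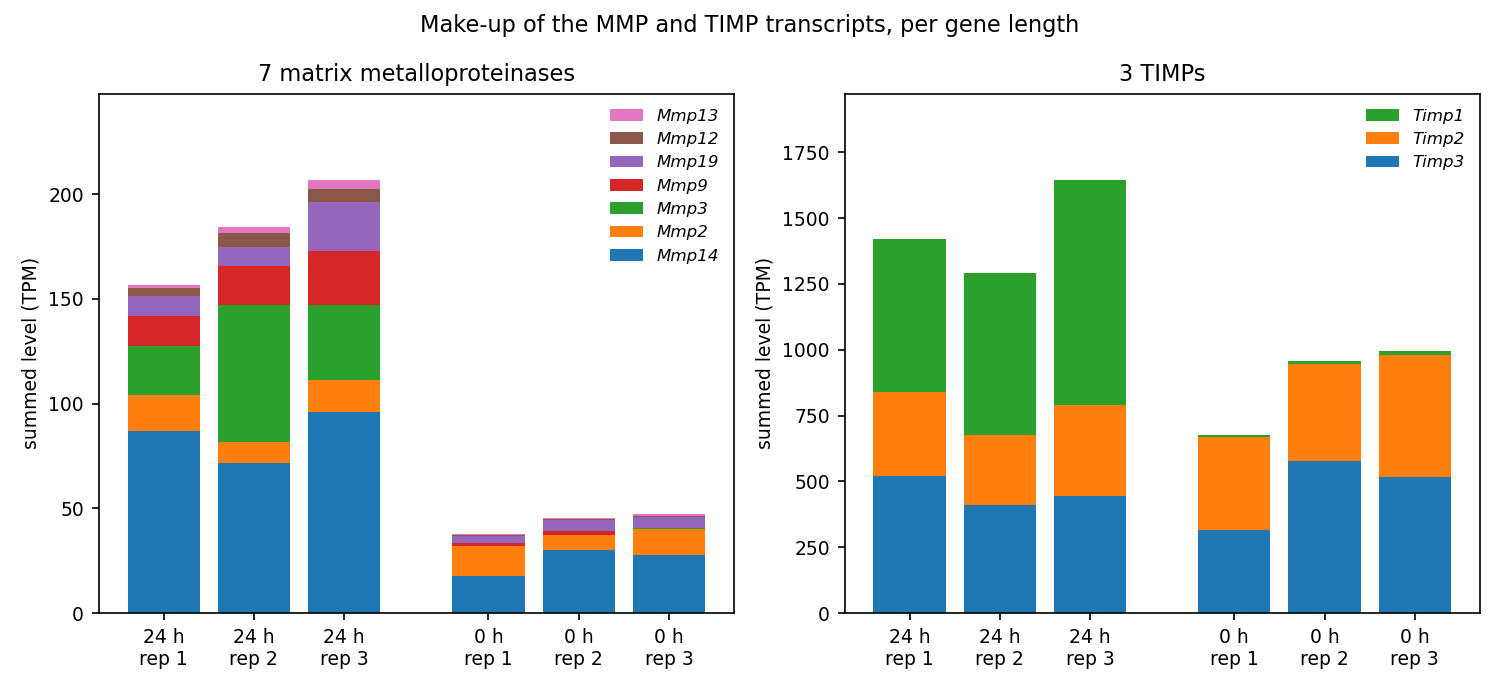
Levels in TPM (y axis, linear from 0) of the 7 MMPs (left) and the 3 TIMPs (right), stacked for each library, 24 h left of 0 h. The summed MMP level reaches 156 to 207 TPM at 24 h and 37.6 to 47.1 TPM at 0 h, and Timp1 fills 40.8 to 52.0% of the TIMP bars at 24 h and at most 1.65% at 0 h.

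The 24 h libraries differed among themselves. Rn45s, the ribosomal RNA precursor, took 15.4, 5.04 and 5.0% of the counts in 24 h replicates 1 to 3, against 2.44, 3.45 and 2.62% in 0 h replicates 1 to 3, so it was higher in every 24 h library and set 24 h replicate 1 apart. Without 24 h replicate 1 all 7 members called higher were still called, and the part of Rn45s in the results was not tested. Of the 7 members called higher, 6 were highest in 24 h replicate 3, the exception being Mmp3 in replicate 2. Replicate 3 of 24 h also had the highest summed neutrophil and macrophage markers, given above, and the highest sum of 5 surface epithelium keratins, at 45.9, 2.66 and 74.3 CPM in 24 h replicates 1 to 3, against 9.02, 5.61 and 11.5 CPM in 0 h replicates 1 to 3. Of these keratins 3 could be tested and 2 (Krt12 and Krt5) were called higher, neither of them when 24 h replicate 1 or any single 0 h library was left out, while Krt14 had 0 counts at 0 h. The summed level of 10 photoreceptor markers was lowest in that library, 1092 CPM against 3086 and 4980 CPM in 24 h replicates 1 and 2, and these markers ran from 2023 to 6229 CPM at 0 h. By edgeR 0 of the 10 were called, with 1 lower at an unadjusted p under 0.05 and 0 called by DESeq2 or limma-voom. By edgeR with a block for the replicate number, 5 of the 10 were called lower. Without 24 h replicate 3, log2 fold changes were 5.42 for Timp1, 7.60 for Mmp3, 3.67 for Mmp9, 4.02 for Mmp12 and 1.44 for Mmp14, each still called. The part of these other cells in the differences between the 24 h libraries was not tested.

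Stromal, endothelial and lens lists were read too, where 15.2% of all genes tested were called higher and 13.0% lower. Of 9 stromal markers, with Kera at 0 in all libraries, 7 were tested, 1 was called higher and 2 lower (summed 918 to 1359 CPM at 24 h and 1254 to 1845 CPM at 0 h). Of 6 endothelial markers 2 were called higher (26.8 to 49.9 CPM at 24 h and 17.7 to 45.8 CPM at 0 h), and 1 when replicate 1 of either time was left out. The stromal count of lower calls was 1 without 24 h replicate 2 or 0 h replicate 1. Lens epithelium markers were called higher in 1 and lower in 4 of 9, and lens fiber markers lower in 8 of 9, with sums over the fiber markers of 5722 to 6587 CPM at 24 h and 14211 to 23178 CPM at 0 h.

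Among the 16 other MMP genes listed, 8 passed the low-count filter. Of these, 2 were called higher and 1 lower, where 15.2% and 13.0% of all genes tested were. The higher ones were Mmp7 and Mmp10, described with the cluster, and without 0 h replicate 2 there were 4. The lower one was Mmp15, a membrane-type MMP related to Mmp14, which had 5.63, 4.99 and 7.19 CPM in 24 h replicates 1 to 3, against 23.5, 20.0 and 21.0 CPM in 0 h replicates 1 to 3. Its groups were far apart, and its log2 fold change was -1.86 ± 0.22 (adjusted p = 0.000617), in the direction opposite to that of Mmp14.

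Other inhibitors went both ways. Reck, a membrane-anchored inhibitor of Mmp2, Mmp9 and Mmp14, had 13.8, 10.6 and 14.9 CPM in 24 h replicates 1 to 3, against 18.4, 30.6 and 28.3 CPM in 0 h replicates 1 to 3. It was called lower (log2 fold change -0.97 ± 0.24, adjusted p = 0.0176), a call that was lost when 24 h replicate 2, or 0 h replicate 2 or 3, was left out. A2m, a trap for many proteases, had 161, 131 and 351 CPM at 24 h, against 75.1, 109 and 76.9 CPM at 0 h, and was called higher (log2 fold change 1.30, adjusted p = 0.0257). That call was lost when 0 h replicate 1 or 3 was left out, and in the test against a 1.5-fold change. Tfpi2, a serine protease inhibitor that also blocks some MMPs, had 30, 15 and 12 reads at 24 h and a single read at 0 h, a scaled ratio of 60.1 (95% counting interval 10.4 to 2416). Tfpi2 passed the low-count filter only through its 24 h libraries, so it could hardly be tested without being higher. Timp4, the remaining TIMP, did not pass the low-count filter.

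Proteases and surface proteins that activate or hold MMPs rose in part. Of 16 listed genes 11 were tested, 5 were called higher (Plat, Plaur, Plau, Furin and Cd44) and 1 lower (Pcsk5, lost in each leave-one-out fit but the one without 24 h replicate 3). Over all genes tested, 15.2% were called higher and 13.0% lower. Plau, the urokinase that turns plasminogen into the MMP-activating protease plasmin, had 32.0, 38.1 and 25.6 CPM at 24 h, against 1.30, 0.802 and 1.83 CPM at 0 h (log2 fold change 4.61 ± 0.32, adjusted p = 5.71e-05). Plaur, its receptor, had 68.8, 131 and 52.8 CPM at 24 h, against 0.501, 0.200 and 0.122 CPM at 0 h (log2 fold change 8.15 ± 0.54). With so few reads at 0 h, Plaur passed the low-count filter only through its 24 h libraries and could hardly be tested without being higher. Plat, the tissue-type activator, was even across replicates at 204 to 219 CPM at 24 h and 21.2 to 26.2 CPM at 0 h. Furin, which activates the Mmp14 precursor, had 258, 335 and 285 CPM at 24 h, against 123, 124 and 120 CPM at 0 h (log2 fold change 1.26 ± 0.15, adjusted p = 0.00055), and was named after its values were seen. Plasminogen itself (Plg, also named after its values were seen) had a summed count of 1 at 24 h and 0 at 0 h.

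ADAM and ADAMTS proteases, relatives of the MMPs of which several are inhibited by Timp3, were called higher in 6 and lower in 4 of 19 tested, out of 23 listed. The shares of all genes tested were 15.2% higher and 13.0% lower. Adam12 had 128, 158 and 162 CPM at 24 h, against 5.71, 7.82 and 11.6 CPM at 0 h (log2 fold change 4.16 ± 0.26, adjusted p = 3.21e-05). Adamts1, a proteoglycan-cutting enzyme, had 204, 133 and 143 CPM at 24 h, against 19.8, 26.9 and 19.8 CPM at 0 h, and Adam8, known from leukocytes, had 20.1, 31.1 and 26.1 CPM at 24 h, against 0.701, 2.50 and 1.22 CPM at 0 h. Leaving out 24 h replicate 2, or 0 h replicate 2 or 3, left 2 called lower.

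The substrates split. Of 23 capsule and matrix genes whose proteins MMPs can cut, 6 were called higher and 9 lower, where 15.2% and 13.0% of all genes tested were. Those with the lowest p were Tnc, Fn1 and Col1a1, all higher: Tnc had 412, 838 and 952 CPM at 24 h, against 7.11, 10.5 and 7.69 CPM at 0 h, and Fn1 had 176, 377 and 513 CPM at 24 h, against 18.9, 22.6 and 15.7 CPM at 0 h. Col1a1 had 74.0, 24.2 and 83.6 CPM at 24 h, against 2.1, 4.61 and 5.12 CPM at 0 h. Of the type IV collagen genes, which build the capsule, Col4a1, Col4a2, Col4a3 and Col4a4 were called lower. Col4a5 (log2 fold change -0.33, adjusted p = 0.502) and Col4a6 (0.05, adjusted p = 0.915) were not called. Col4a1, named after its values were seen, had 3396, 3314 and 5202 CPM at 24 h, against 10299, 5233 and 11277 CPM at 0 h (log2 fold change -1.17, adjusted p = 0.0335). The calls of Col4a1, Col4a2, Col4a3 and Col4a4 were each lost when 24 h replicate 1 or 2, or 0 h replicate 1 or 3, was left out. In each of these fits 2 substrate genes were called lower. Leaving out 0 h replicate 1 or 2 left 3 called higher.

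Transcription factors that are known to act on MMP and TIMP1 genes were called higher in 13 of 14, the other being Jund (adjusted p = 0.404). Among all genes tested 15.2% were called higher. The list was chosen with earlier results of these data known, and the part of these factors in the MMP and TIMP levels was not tested. Runx1 had 88.4, 123 and 89.7 CPM at 24 h, against 1.4, 2.40 and 2.68 CPM at 0 h (log2 fold change 5.54 ± 0.26, adjusted p = 1.18e-05). Ets1 had 51.0, 72.4 and 50.6 CPM at 24 h, against 2.81, 2.20 and 2.44 CPM at 0 h, and the AP-1 subunit Fosl2 had 176, 189 and 202 CPM at 24 h, against 59.7, 51.6 and 61.0 CPM at 0 h. Their median change was 2.49 on the log2 scale.

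**Figure D5:**
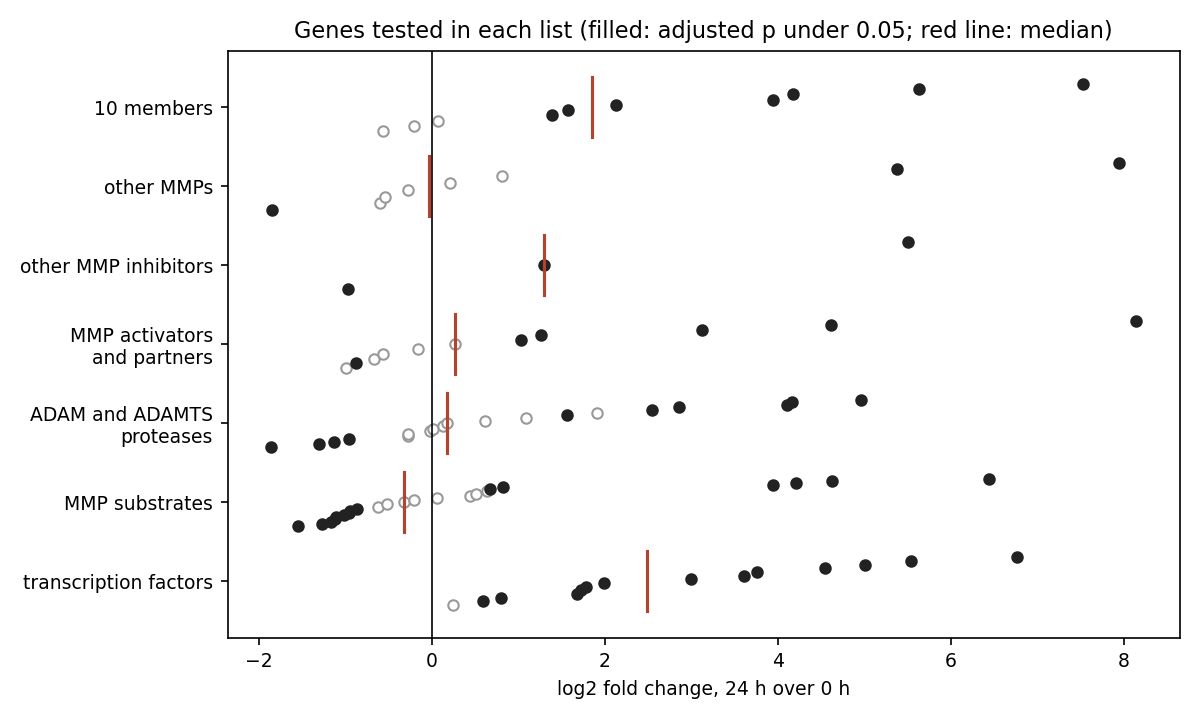
Log2 fold change, 24 h over 0 h (x axis), of every tested gene of the 10 members and of 6 related lists (rows), filled where the adjusted p was under 0.05, with the median of each list as a red line. The medians run from -0.33 for MMP substrates to 2.49 for the transcription factors, and 1.85 for the 10 members.

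For each member the gene with the most similar profile was taken, as the smallest root mean square difference of log2 CPM, centred on each gene's mean, over the 6 libraries. For Mmp3 it was the chemokine gene Cxcl3, with a difference of 0.31 log2 units and 17.8, 37.2 and 40.2 CPM at 24 h, against 0.200, 0.100 and 0.366 CPM at 0 h. For Timp1 it was Srgn, the proteoglycan serglycin (0.24), and for Mmp9 it was Cd97, an adhesion receptor of leukocytes (0.45). Mmp12 was closest to Gal, the neuropeptide galanin (0.12), Mmp14 to Pak1, a kinase (0.083), Mmp13 to Slc47a1 (0.20) and Mmp19 to Inpp5d, a lipid phosphatase of blood cells (0.15). Mmp2 was closest to Sdr42e1 (0.14), Timp2 to Slc3a2 (0.053) and Timp3 to Ccnt1 (0.047). No member was the closest gene of another. Such closeness over 6 libraries in 2 groups is mostly set by the size of the change.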

How the data were processed

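The authors deposited 1 table per library with whole-number read counts per gene, symbol, position and length, per the file headers. The authors' RPKM values, per the file headers, equalled counts divided by length and by summed gene counts and were not used. The submitters' processing notes name Trim Galore 0.4.4, TopHat2 2.1.0 and HTSeq 0.6.1p1, with mm10 as the build. No source used here states the annotation or the strand setting. Floors of 3 counts correspond to 0.301 to 0.384 TMM-scaled CPM.

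Genes were filtered with filterByExpr (default settings), scaled by TMM and tested, 24 h against 0 h, with edgeR 4.0.16 in R 4.3.3 (quasi-likelihood, two-sided, no covariate), a procedure tested on simulated data. Each standard error is |log2 fold change| over the root of the F statistic. Alternatives were RLE factors, library totals, no filter, DESeq2 1.42.0, limma-voom (limma 3.58.1), a 1.5-fold threshold, a replicate block and leaving out each library. Members and lists were chosen with earlier results of these data known. The naming rule took all members, the 3 lowest p in each related list, the 2 most abundant genes of marker lists, of which those that bear on a member are printed, genes overlapping a member, and the closest gene of each member. Other genes in the text (such as Furin, Jund, Timp4 and the called markers) were named after their values were seen. Adgre1 was matched through a RefSeq synonym, and Ly6g was not analysed here. The level of 1 marker gene is not reported here. Exon overlaps come from GENCODE M21 and promoters from RefSeq, both on GRCm38, the assembly that mm10 names.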

Additional observations from a re-analysis of the deposited data

How the results depend on the processing

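Mmp3, Mmp9, Mmp12, Mmp14 and Timp1 were called higher under each of 13 alternatives. Members called higher numbered 7 and ran from 5 to 7 over all alternatives, Mmp13 and Mmp19 being those lost. Members called lower numbered 0, but 1 (Timp2) with DESeq2 and 1 with the replicate block (adjusted p = 0.018), and 0 to 1 when single libraries were left out. Mmp2 ran from -0.23 to 0.42 on the log2 scale when single libraries were left out, below 0 without 24 h replicate 1, 24 h replicate 3 or 0 h replicate 2. Over all genes, 2125 were called higher and 1817 lower. Against a 1.5-fold change 1060 were higher and 629 lower, and leaving out single libraries gave 1551 to 1897 higher and 1041 to 1648 lower. With library totals only, 2323 were higher and 1441 lower.

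The summed MMP level was 4.21-fold higher at 24 h, 3.36-fold on CPM and 3.06-fold over all listed MMPs. For the summed TIMP level the value was 1.66, and 0.931 on CPM. TIMP per MMP was 8.02 at 24 h and 20.1 at 0 h, 6.57 and 12 over all listed MMPs and TIMPs, and 29.5 on CPM at 0 h. TPM and CPM differ in gene length and in library scaling, and the cause of these shifts was not tested.

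Same-numbered libraries correlated in their deviations from the group means by 0.0866, 0.215 and 0.397 for numbers 1 to 3. For 24 h replicates 2 and 3 this was the highest value with any 0 h library, while 24 h replicate 1 correlated better with 0 h replicate 2 (0.172). The labels give only a replicate number, so whether same-numbered libraries belong together cannot be told. The replicate block gave 2315 higher and 2174 lower genes, and called 5 of the 10 photoreceptor markers lower, where the fit without it called 0 and the fit with no low-count filter 1. Mmp13 gave no value without 24 h replicate 3, since it did not pass the filter. At 0 h, Mmp3, Mmp12 and Mmp13 had 0 to 9 reads per library, so their fold changes rest on few reads. List counts without single libraries were added after the data were seen.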
